A study of Mus musculus with 12 samples.

Results

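Syndecans and glypicans are the 2 main families of cell-surface proteins that carry heparan sulphate chains. The 9 genes described here, *Sdc1*, *Sdc2*, *Sdc3*, *Sdc4*, *Gpc1*, *Gpc2*, *Gpc3*, *Gpc4* and *Gpc6*, were taken by symbol from the 42450 genes listed in the count table of a mouse embryonic stem cell (ESC) knockdown study. All 9 were among the 19410 genes that passed the filter on low counts. They were selected on their library-size-scaled levels in all 12 libraries, by siRNA, time and experiment, and those values chose them, so their levels and changes are given below as a description and carry no test. The other glypican gene of the mouse, *Gpc5*, was not among them and reached at most 0.217 CPM (counts scaled to a common library total) in any library.

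The study asked how lowering the splicing factor gene *Srrm2* by RNA interference changes polyA+ RNA in ESC. All 12 libraries came from the same wild-type male line, E14tg2a.4, grown without feeder cells with the self-renewal cytokine LIF and transfected with 50 nM siRNA in Lipofectamine RNAiMAX. Per the study's methods, the line was kept in medium with serum and was grown in serum-free medium before samples were collected. The siRNA was directed against *Srrm2* (Srrm2-KD) or, as control, against firefly luciferase, a gene that mouse cells lack (Gl2-KD), and cells were collected at 24 h or at 72 h, with 3 libraries in each of the 4 groups. The study's methods list 2 siRNA sequences against *Srrm2* and 1 against luciferase, and do not say whether the *Srrm2* sequences were used together. Cells collected at 72 h had received the same siRNA a second time after 24 h, so time after transfection, the second transfection and the longer serum-free culture cannot be told apart. The replicate number, which marks experiments 1, 2 and 3 in the library names, was shared by the 4 groups. The knockdown was transient and partial, and each library holds RNA of a whole culture, in which fewer cells of a type and less RNA per cell cannot be told apart.

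Heparan sulphate is a long sugar chain that the cell builds on a core protein in the Golgi and that binds growth factors such as FGFs, WNTs, BMPs and Hedgehog proteins. Syndecans span the membrane and have a short cytoplasmic tail that binds PDZ proteins and the cytoskeleton, whereas glypicans are held on the outer leaflet by a lipid anchor. In ESC these chains are known for supporting FGF and BMP signalling, and cells without them are slow to leave the pluripotent state.

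The libraries held 73933196 to 153343831 estimated counts. *Srrm2* was lower in Srrm2-KD than in Gl2-KD in each experiment at both times, by 1.22 ± 0.14 (SE) on the log2 scale at 24 h (43.0% left) and by 1.16 ± 0.14 at 72 h (44.6% left), with adjusted p = 0.0663 and 0.0991 in edgeR's quasi-likelihood test, outside the threshold of 0.05. Over 26 alternative settings *Srrm2* was called in 7 at 24 h and in 10 at 72 h, among them DESeq2 (adjusted p = 5.03e-11 and 1.72e-09) and limma-voom. The 6 pluripotency markers examined summed to between 3690 and 4470 CPM in every library. The experiments stood apart from each other: 16.8% of the 19410 genes were higher in all 4 libraries of experiment 1 than in the other 8, and 13.7% were lower in all 4. Every change below was fitted within experiments, with the experiment number as a block, and each member is shown by experiment.

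Levels of different genes were compared per kilobase of exon. *Gpc3*, whose loss causes overgrowth in humans and mice, had the highest level, with a median of 33.5 CPM per kb over the 12 libraries and a range of 22.9 to 52.4. *Sdc4*, a syndecan of focal adhesions, followed with a median of 26.9 and a range of 8.39 to 70.9 CPM per kb, and *Gpc4*, a glypican next to *Gpc3* on the X chromosome, came next at 12.4 (7.42 to 27.5). These 3 neighbours in the order overlapped: *Gpc3* lay above *Sdc4* in 11 of 12 libraries and *Sdc4* above *Gpc4* in 9 of 12.

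The other members formed a lower series. *Sdc1*, the syndecan of epithelia, had a median of 7.76 CPM per kb, and the ranges of *Gpc4* and *Sdc1* also overlapped, with *Gpc4* higher in 11 of 12 libraries. *Gpc1*, a broadly made glypican, and *Gpc2*, a glypican of developing neurons, had medians of 4.35 and 3.40 CPM per kb and overlapping ranges. The remaining steps were larger than the spread over libraries, since *Sdc1* lay above *Gpc1*, *Gpc2* above *Sdc2*, *Sdc2* above *Sdc3* and *Sdc3* above *Gpc6* in 12 of 12 libraries with no overlap of their ranges. *Sdc2*, the syndecan of mesenchymal cells, had a median of 1.24 CPM per kb, *Sdc3*, the syndecan of nervous tissue, 0.350, and *Gpc6*, a glypican of the developing skeleton, 0.0741. Using the length of the longest transcript instead of all exons left the order of the 9 genes as it was.

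**Figure D1:**
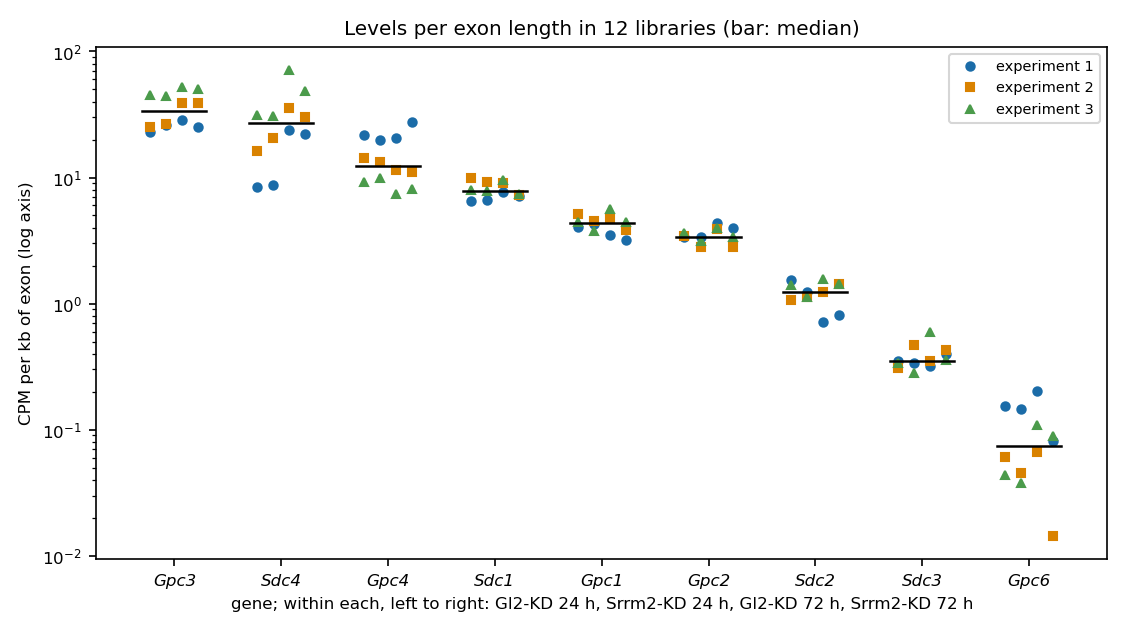
Level of each member in CPM per kb of exon (log axis) in the 12 libraries, with colour and shape for the experiment, the 4 groups from left to right within each gene and a bar at the median over libraries. *Gpc3*, *Sdc4* and *Gpc4* lead with medians of 33.5, 26.9 and 12.4 CPM per kb, and *Gpc6* is lowest at 0.0741.

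*Sdc4* (ENSMUSG00000017009) lies on the minus strand of chr2:164424247-164443887 in GRCm38. Its core protein binds protein kinase C alpha and acts with integrins where cells attach to matrix. Among the members, it was the one that differed most between the time points. Its upstream sequence and that of *Gpc3* (ENSMUSG00000055653, minus strand of chrX:52272426-52613950) are shown because these genes had the highest levels per length and changed side by side across the libraries, as described below. Each run is the 250 bases before the RefSeq transcript start in GRCm38.p6, 5′ to 3′ on the strand of the gene (chr2:164443189-164443438 for *Sdc4* and chrX:52613975-52614224 for *Gpc3*), and capitals mark matches to the motifs searched.
Sdc4: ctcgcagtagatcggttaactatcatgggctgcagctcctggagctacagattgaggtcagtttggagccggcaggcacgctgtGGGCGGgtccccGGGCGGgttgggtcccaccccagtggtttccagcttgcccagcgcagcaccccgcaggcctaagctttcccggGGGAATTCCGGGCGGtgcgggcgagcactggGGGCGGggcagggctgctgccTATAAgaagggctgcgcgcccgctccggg
Gpc3: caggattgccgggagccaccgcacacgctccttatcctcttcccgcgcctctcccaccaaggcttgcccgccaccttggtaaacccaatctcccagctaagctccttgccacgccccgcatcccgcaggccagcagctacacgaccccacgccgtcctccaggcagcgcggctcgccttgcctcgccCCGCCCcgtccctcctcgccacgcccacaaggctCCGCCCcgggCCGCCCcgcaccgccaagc
The motifs, chosen with these sequences in view, were the TATA box core TATAA, the GC box GGGCGG, the run GGGAATTCC and the CArG box, each on both strands, so that the GC box also appears as CCGCCC. Of 32851 RefSeq promoters of the same length, 22.8% held TATAA, 32.7% GGGCGG, 0.21% GGGAATTCC and 1.47% a CArG box. The *Sdc4* run held TATAA and GGGAATTCC once each and GGGCGG 4 times, 1 copy directly after GGGAATTCC. The *Gpc3* run held GGGCGG 3 times and no TATAA, and neither run held a CArG box. Of the 6 members with an entry in the promoter table, *Sdc1* and *Sdc4* held TATAA and all 6 held GGGCGG. The *Sdc4* run lies inside the gene span given above, so RefSeq and GENCODE, the source of the span, place the start of this gene differently. A match is a description of the letters and not a site shown to be used.

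In Gl2-KD at 24 h, *Sdc4* stood at 21.4, 41.3 and 80.4 CPM in experiments 1, 2 and 3, and in Gl2-KD at 72 h at 60.3, 91.2 and 181 CPM. In Srrm2-KD, the values were 22.4, 52.8 and 78.6 CPM at 24 h and 56.0, 77.0 and 125 CPM at 72 h. Within each experiment and each siRNA, the 72 h library was thus the higher, while the groups overlapped, because experiment 3 at 24 h lay above experiment 1 at 72 h. Group means were 47.7 ± 30.1 (SD, n = 3) and 111 ± 62.5 CPM in Gl2-KD at 24 and 72 h, and 51.3 ± 28.1 and 85.8 ± 35.1 CPM in Srrm2-KD.

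The fitted difference of *Sdc4* between 72 h and 24 h was 1.27 ± 0.15 (SE) on the log2 scale in Gl2-KD, or 2.41-fold, and 0.84 ± 0.15 in Srrm2-KD, or 1.80-fold. In Gl2-KD it was the 1 member of 9 that was called. Of all 19410 genes, 1.45% were called in either direction and 0.747% were called higher at 72 h. In Srrm2-KD it was again the 1 member called, against 0.551% of all genes called in either direction and 0.191% of all genes called higher. DESeq2 and limma-voom also called *Sdc4* alone among the members in both comparisons, where DESeq2 called 6.89% of all genes in Gl2-KD and 5.47% in Srrm2-KD, and limma-voom 2.48% and 1.33%. Since *Sdc4* was chosen with these values known, nothing is read from its call. Over 25 alternative settings the difference stayed between 1.15 and 1.37 in Gl2-KD and between 0.60 and 0.99 in Srrm2-KD. It was called in 20 of the 25 in Gl2-KD, where leaving out the library of experiment 1 or 2 at 24 h, or that of experiment 2 at 72 h, ended the call. In Srrm2-KD it was called in 7 of the 25, and leaving out any 1 of the 12 libraries ended the call.

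Of the 5 trophoblast markers, 1 was called with time, *Krt7*, a keratin of trophoblast and other simple epithelia. With time *Krt7* rose by 1.83 ± 0.27 (SE, log2 scale) in Gl2-KD (adjusted p = 0.0144, edgeR) and by 1.77 ± 0.26 in Srrm2-KD (adjusted p = 0.0333), higher in 3 of 3 experiments in both. It reached 18.6 CPM at most. *Krt8*, the most abundant marker of the list, was not called, with log2 differences of 0.28 ± 0.26 in Gl2-KD and -0.38 ± 0.26 in Srrm2-KD, and it was lower at 72 h in experiment 1 in Gl2-KD and in experiments 1 and 2 in Srrm2-KD. The 5 markers summed to between 8.34 and 50.4 CPM in Gl2-KD at 24 h and 9.04 and 76.7 CPM at 72 h, and *Cdx2*, *Elf5* and *Gata3*, 3 of the 5, stayed below 1 CPM in all 12 libraries. In Srrm2-KD the list ran from 7.56 to 23.8 CPM at 24 h and from 6.13 to 39.8 CPM at 72 h. The neuroectoderm markers summed to 105 to 166 CPM in Gl2-KD at 24 h and 78.9 to 111 CPM at 72 h. In Srrm2-KD their sums were 96.7 to 168 CPM at 24 h and 76.1 to 102 CPM at 72 h. The fibroblast markers summed to 7.71 to 17 CPM in Gl2-KD at 24 h and 4.83 to 24.8 CPM at 72 h. For mesoderm these sums were 5.38 to 6.62 and 4.12 to 8.05 CPM, and for primitive endoderm 2.6 to 4.54 and 2.84 to 3.83 CPM. The part of any of these cell types in the *Sdc4* difference was not tested.

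The makeup of the syndecan family also differed between the times. Per kb of exon, the syndecans of Gl2-KD together summed to 16.8, 27.5 and 41.3 CPM at the first time point and to 32.3, 46.5 and 82.7 CPM at the second. *Sdc4* made up 50.0, 58.9 and 76.5% of that sum at 24 h and 73.2, 77.0 and 85.8% at 72 h, a mean of 61.8% ± 13.5 (SD, n = 3) against 78.7% ± 6.44. In Srrm2-KD its share was 51.9, 65.8 and 76.8% at 24 h and 72.4, 76.7 and 84.2% at 72 h. The *Sdc4* share was higher at 72 h within every experiment and lowest in experiment 1 in all 4 groups. The share of *Sdc1* was lower at 72 h in every experiment, from 38.7, 36.1 and 19.2% at 24 h to 23.6, 19.6 and 11.6% in Gl2-KD, although the level of *Sdc1* itself was not lower at 72 h in experiments 1 and 3.

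**Figure D2:**
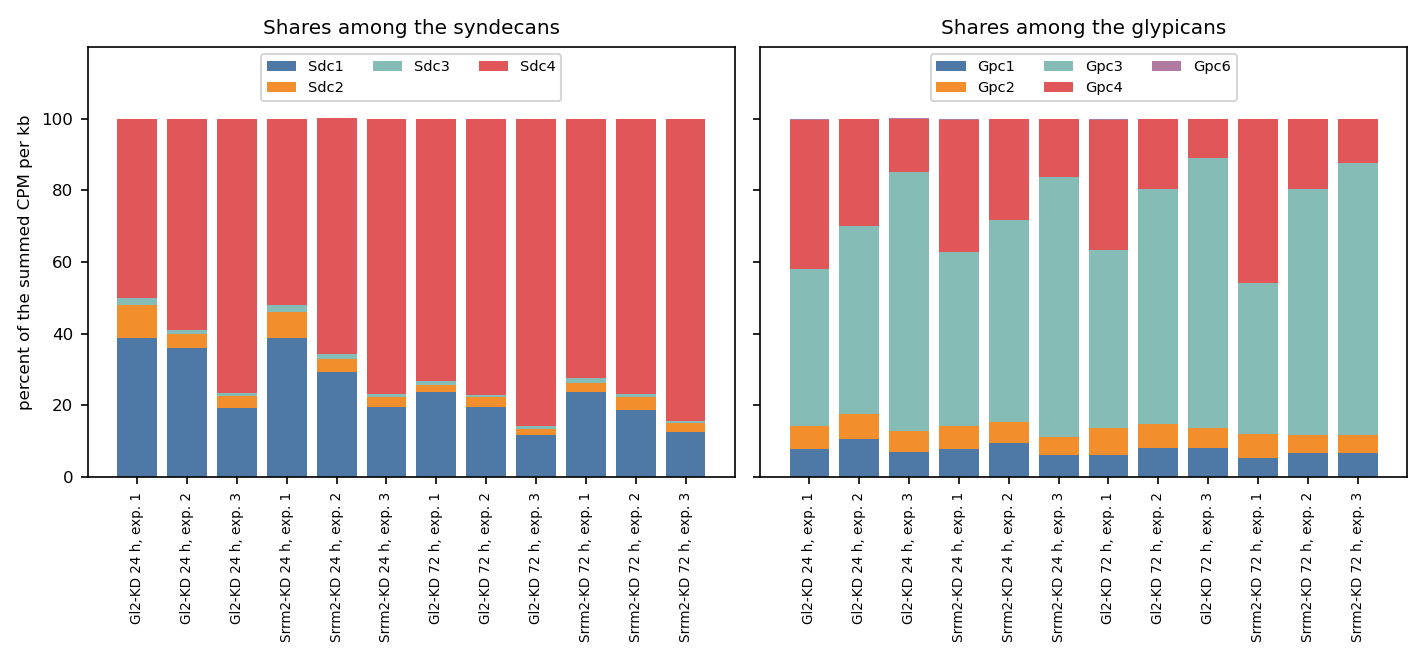
Share of each gene in the summed CPM per kb of the syndecans (left) and glypicans (right) in each library, in percent, as stacked bars. *Sdc4* holds 50.0 to 76.8% of the syndecan sum at 24 h and 72.4 to 85.8% at 72 h, and *Gpc3* holds 42.1 to 76.0% of the glypican sum, with its lowest shares in experiment 1.

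The other syndecans were steadier. *Sdc1* (ENSMUSG00000020592, plus strand of chr12:8771323-8793715) ran from 24.8 to 37.8 CPM over the 12 libraries, a 1.53-fold span against 8.46-fold for *Sdc4*. At 72 h, its levels were 29.1, 34.7 and 36.6 CPM in Gl2-KD and 27.3, 27.9 and 28.1 CPM in Srrm2-KD. All 3 Srrm2-KD libraries thus lay below the 3 Gl2-KD libraries, which was so for 3.69% of all genes, and the fitted difference was -0.26 ± 0.12 (SE) on the log2 scale. At 24 h, *Sdc1* levels were 24.8, 37.8 and 30.2 CPM in Gl2-KD and 25.1, 35.0 and 30.1 CPM in Srrm2-KD, and the difference was -0.04 ± 0.12.

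*Sdc2* (ENSMUSG00000022261, plus strand of chr15:32920723-33034935) had 2.54 to 5.54 CPM and showed no difference between siRNAs of the same sign in all experiments (-0.20 ± 0.28 at 24 h and 0.06 ± 0.28 at 72 h on the log2 scale). Its lowest libraries were both of experiment 1 at 72 h, 2.54 CPM in Gl2-KD and 2.88 CPM in Srrm2-KD, against 5.44 and 4.34 CPM in the same experiment at 24 h. In experiments 2 and 3 it was higher at 72 h than at 24 h in both siRNAs. *Sdc3* (ENSMUSG00000025743, plus strand of chr4:130792537-130826319) had 1.69 to 3.59 CPM, and its highest library, Gl2-KD at 72 h in experiment 3, stood apart from the next at 2.79 CPM. The span of an antisense gene, *Gm26716*, covers 1920 bases of a *Sdc3* exon, and *Gm26716* was listed at 0 in every library.

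*Gpc3*, a glypican that binds Hedgehog and WNT proteins and whose gene spans 341.5 kb, stood at 61.5, 67.8 and 121 CPM in Gl2-KD at 24 h and at 76.3, 105 and 141 CPM at 72 h. In Srrm2-KD it stood at 70.8, 71.7 and 120 CPM at 24 h and at 67.9, 104 and 137 CPM at 72 h. Experiment 3 was the highest in every group. Between the times, the fitted difference was 0.38 ± 0.12 (SE) on the log2 scale in Gl2-KD, higher in 3 of 3 experiments, and 0.22 ± 0.12 in Srrm2-KD, higher in 2 of 3. Srrm2-KD and Gl2-KD differed by 0.09 ± 0.12 at 24 h and -0.07 ± 0.12 at 72 h.

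*Gpc4* (ENSMUSG00000031119) lies 107.2 kb from *Gpc3* on the same strand, at chrX:52053021-52165252. It stood at 57.4, 38.1 and 24.3 CPM in Gl2-KD at 24 h and at 54.9, 30.5 and 19.7 CPM at 72 h. In Srrm2-KD it stood at 53.1, 35.2 and 26.5 CPM at 24 h and at 72.8, 29.2 and 21.6 CPM at 72 h. All 4 libraries of experiment 1 lay above the other 8, as for 16.8% of all genes, and the order of the experiments was the reverse of that of *Gpc3*. The siRNAs differed by -0.03 ± 0.14 at 24 h and by 0.17 ± 0.14 at 72 h, and the time points by -0.23 ± 0.14 in Gl2-KD, lower in 3 of 3 experiments like 16.3% of all genes, and -0.03 ± 0.15 in Srrm2-KD.

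The experiments differed in a fixed order for 3 members. *Sdc4* and *Gpc3* increased in the order of experiments 1, 2 and 3 in all 4 groups, with geometric means of 35.7, 62.5 and 109 CPM for *Sdc4* and 68.9, 85.3 and 129 CPM for *Gpc3*. *Gpc4* decreased in that order in all 4 groups, from 59.1 to 33.1 and 22.9 CPM. Of all genes, 5.6% had the first order in all 4 groups and 5.43% the reverse. The ratio of *Gpc3* to *Gpc4* CPM was 1.07, 1.78 and 4.97 in Gl2-KD at 24 h and 1.39, 3.43 and 7.16 at 72 h. In Srrm2-KD it was 1.33, 2.03 and 4.52 at 24 h and 0.933, 3.57 and 6.34 at 72 h. These neighbouring genes thus went from near equal levels in experiment 1 to levels several fold apart in experiment 3, whichever siRNA was used. The 6 primitive endoderm markers summed to 3.81 to 4.80 CPM in experiment 1, 2.84 to 3.68 in experiment 2 and 2.23 to 3.08 in experiment 3. In the same order, the neuroectoderm list summed to 102 to 116, 85.6 to 168 and 76.1 to 114 CPM. The mesoderm list summed to 3.7 to 8.05, 5.88 to 8.71 and 4.12 to 8.17 CPM. *Krt7*, *Krt8*, *Thy1* and *Nes* followed the order of *Sdc4* and *Gpc3* in all 4 groups, and *Pax6* and *Sox7* that of *Gpc4*. *Nes* and *Pax6*, which thus went opposite ways, are both on the neuroectoderm list. The trophoblast list summed to 6.13 to 9.04 CPM in experiment 1, 20.2 to 36.3 in experiment 2 and 23.8 to 76.7 in experiment 3. The fibroblast list, of which *Thy1* held most and *Col1a2*, *Col3a1* and *Postn* stayed below 1 CPM, summed to 3.89 to 7.71, 10.1 to 12.1 and 16.9 to 24.8 CPM. In the trophoblast list, *Cdx2*, *Elf5* and *Gata3* likewise stayed below 1 CPM, so these sums rest on few genes. Whether such cells were present, and their part in the order, was not tested.

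**Figure D3:**
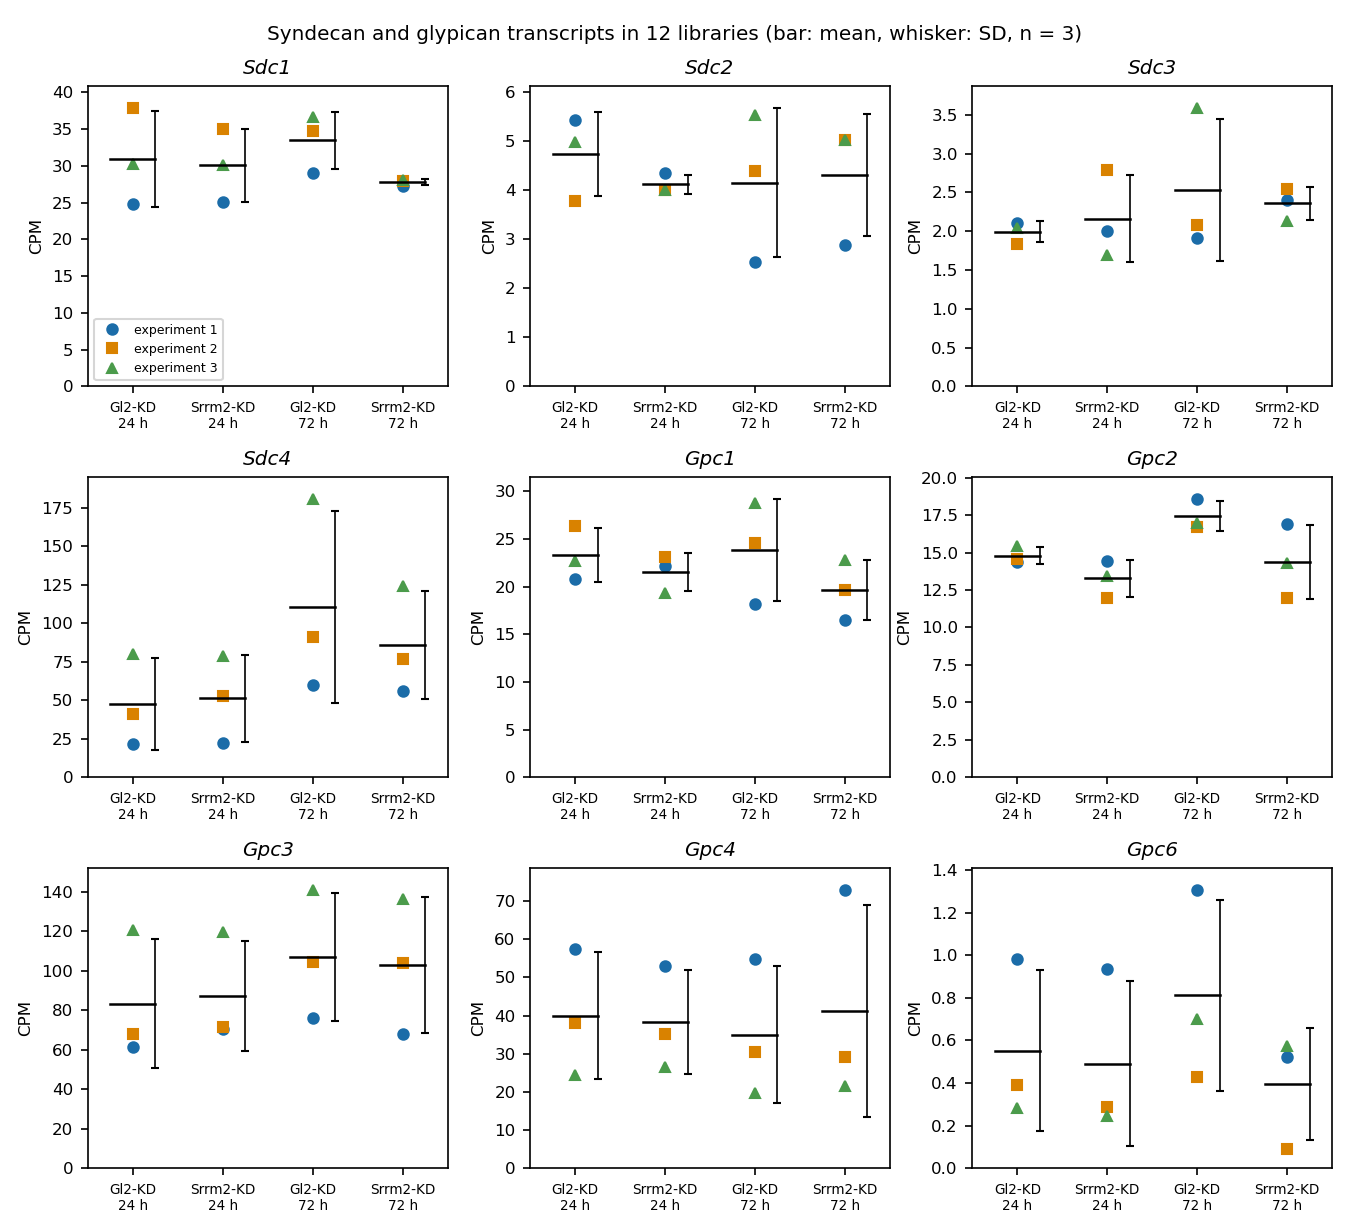
Level of each member in CPM in the 12 libraries, with colour and shape for the experiment, a bar at the group mean and a whisker for the SD (n = 3). *Sdc4* and *Gpc3* are highest in experiment 3 in all 4 groups, and *Gpc4* is highest in experiment 1 in all 4 groups.

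*Gpc1* (ENSMUSG00000034220, plus strand of chr1:92831645-92860779) ran from 16.5 to 28.8 CPM. At 72 h, *Gpc1* stood at 18.2, 24.6 and 28.8 CPM in Gl2-KD and at 16.5, 19.6 and 22.9 CPM in Srrm2-KD, the Srrm2-KD library being the lower in 3 of 3 experiments with overlapping groups (-0.27 ± 0.15 on the log2 scale). *Gpc2* (ENSMUSG00000029510, minus strand of chr5:138273655-138280005) was the shortest gene at 6.4 kb and the steadiest of the glypicans, with a 1.55-fold span from 11.95 to 18.6 CPM. Its levels were 14.4, 14.6 and 15.5 CPM in Gl2-KD at 24 h and 18.6, 16.7 and 17.0 CPM at 72 h, so that the 72 h libraries all lay above the 24 h ones (0.23 ± 0.12), as was so for 3.94% of all genes. In Srrm2-KD, *Gpc2* stood at 14.4, 11.95 and 13.5 CPM at 24 h and at 16.9, 11.97 and 14.3 CPM at 72 h. At 72 h *Gpc2* was below Gl2-KD in all 3 experiments (-0.28 ± 0.12). The span of the gene *Gm43720*, introns included, covers 1559 bases of a *Gpc2* exon on the same strand. Whether their exons overlap, and so whether reads could have been shared between them, was not examined. *Gm43720* was not found by symbol among the genes listed.

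*Gpc6* (ENSMUSG00000058571, plus strand of chr14:116925315-117976544), at 1051.2 kb the longest gene, had 0.0924 to 1.31 CPM and as few as 7 counts in a library. At 72 h, it stood at 1.31, 0.429 and 0.700 CPM in Gl2-KD and at 0.523, 0.0924 and 0.573 CPM in Srrm2-KD. In 3 of 3 experiments the Srrm2-KD library was the lower, by 1.03 ± 0.49 on the log2 scale, an SE larger than that of any other member. The *Gpc6* difference was -0.65 without the Srrm2-KD library of experiment 2 at 72 h and -1.86 without that of experiment 3. At 24 h, *Gpc6* stood at 0.983, 0.392 and 0.283 CPM in Gl2-KD and at 0.936, 0.290 and 0.243 CPM in Srrm2-KD.

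Set side by side, the knockdown comparisons at the 2 times used separate libraries. At 24 h, 6 of 9 members were lower in Srrm2-KD and 3 higher, where 9460 of all 19410 genes were lower. The median log2 difference was -0.04 beside 0.01 over all genes. Of the members 1, *Gpc6*, was lower in 3 of 3 experiments, where 15.4% of all genes were. At 72 h, 7 of 9 members were lower, where 10118 of all 19410 genes were, with a median of -0.26 beside -0.02 over all genes. *Sdc1*, *Sdc4*, *Gpc1*, *Gpc2*, *Gpc3* and *Gpc6*, 6 of 9, were then lower in 3 of 3 experiments, as were 23.1% of all genes. Over the alternatives, the log2 difference at 72 h stayed between -0.40 and -0.18 for *Sdc1* and -0.50 and -0.17 for *Sdc4*. It stayed between -0.41 and -0.13 for *Gpc1*, -0.40 and -0.20 for *Gpc2* and -1.86 and -0.65 for *Gpc6*. That of *Gpc3* ran from -0.20 to 0. *Sdc4* at 72 h was lower by 0.29 ± 0.15 on the log2 scale, with the largest difference in experiment 3 (-0.54). The median over members at 72 h was -0.13 without the Gl2-KD library of experiment 3 at that time and -0.17 without the Srrm2-KD library of experiment 3. Markers of other cells went both ways between the siRNAs at 72 h. *Pax6* had a mean of 18.0 CPM in Srrm2-KD and 17.1 in Gl2-KD, *Kdr* 1.54 and 0.931, and *Dab2* 1.02 and 0.820. The markers lower in Srrm2-KD that are named next were picked after their values were seen. Of these, *Sox1* and *Col1a1* reached at most 1.63 and 0.982 CPM at 72 h. *Krt8* had a log2 difference of -1.10 ± 0.26 (adjusted p = 0.151, edgeR) and *Sox1*, a neuroectoderm marker, one of -1.12 ± 0.43 (adjusted p = 0.319, edgeR), both lower in 3 of 3 experiments, and *Col1a1*, a fibroblast collagen, one of -2.11 ± 0.77 (adjusted p = 0.292, edgeR), lower in 2 of 3. By list, the trophoblast markers summed to 9.04 to 76.7 CPM in Gl2-KD at 72 h and 6.13 to 39.8 CPM in Srrm2-KD, the neuroectoderm markers to 78.9 to 111 and 76.1 to 102 CPM, and the fibroblast markers to 4.83 to 24.8 and 3.89 to 23.2 CPM. The sums of the mesoderm and primitive endoderm markers were 4.12 to 8.05 against 4.95 to 8.71 CPM and 2.84 to 3.83 against 2.28 to 3.81 CPM. The part of these cells in the member differences was not tested. Neither comparison called a member or any of the 19410 genes in edgeR (0%), with 508 genes at an unadjusted p under 0.05 at 24 h and 2498 at 72 h. DESeq2 called 25 and 542 genes (0.129% and 2.79%) and limma-voom 2 and 4 (0.0103% and 0.0206%), and no member was among them. A missed threshold does not show that the members were alike in both siRNAs.

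The difference between the knockdown effects at 72 h and 24 h was negative for 7 of 9 members and for 10503 of all 19410 genes. Its median was -0.17 over the members beside -0.02 over all genes. For *Sdc4* it was -0.42 ± 0.21 (SE) on the log2 scale, negative in 3 of 3 experiments. The share of all genes negative in 3 of 3 experiments was not counted. No gene was called for this difference in edgeR (0%), with 319 at an unadjusted p under 0.05, while DESeq2 called 2 genes (0.0103%) and limma-voom 0, no member among them. In the time comparisons, which share their libraries with those of the knockdown, 7 of 9 members were higher at 72 h in Gl2-KD (median 0.23 beside 0.02 over all genes) and 5 of 9 in Srrm2-KD (median 0.02 beside 0 over all genes). Of all 19410 genes, 10158 were higher at 72 h in Gl2-KD and 9730 in Srrm2-KD. Without the Gl2-KD library of experiment 3 at 72 h the median in Gl2-KD was 0.05, with 4 of 9 members lower, and without that of experiment 1 at 24 h it was 0.13. The median in Srrm2-KD ran from -0.09 to 0.11 over the alternatives. In Gl2-KD, *Sdc4*, *Gpc2*, *Gpc3* and *Gpc6* were higher in 3 of 3 experiments, where 20.3% of all genes were. In Srrm2-KD, *Sdc4* and *Gpc2* were, against 16.2% of all genes.

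**Figure D4:**
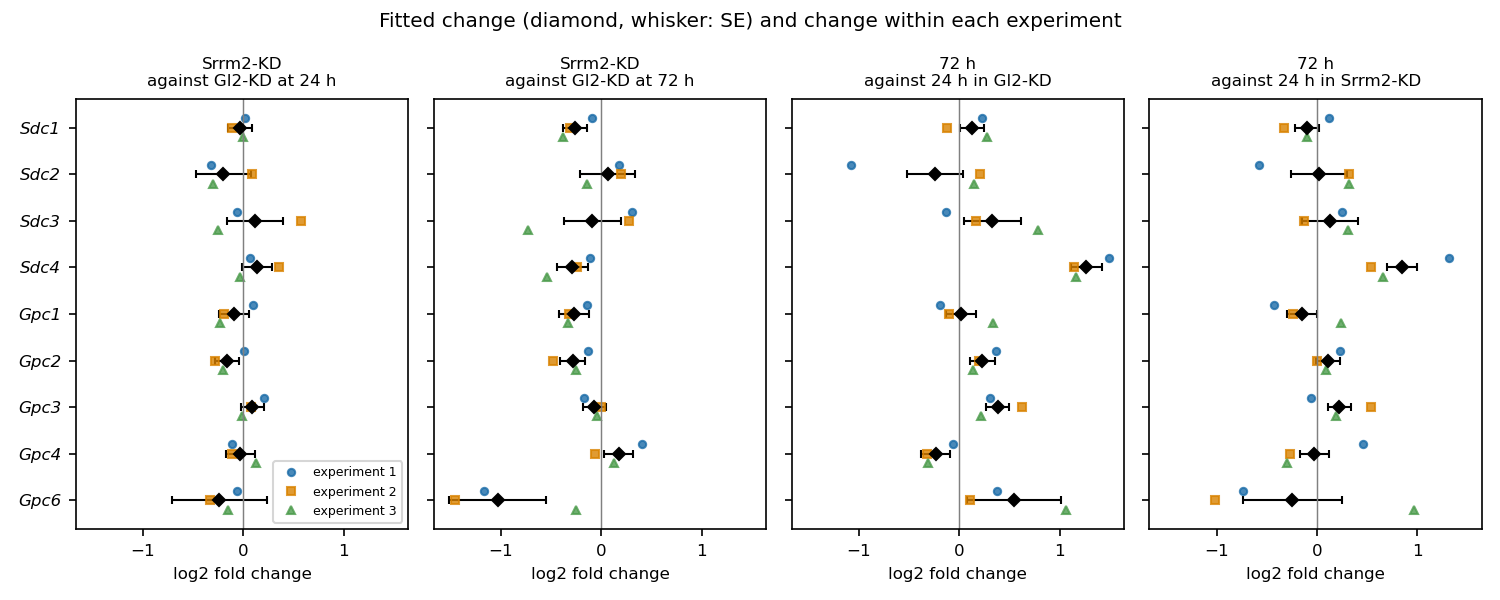
Log2 fold change of each member in the 4 comparisons, with the fitted value as a diamond, its SE as a whisker and the change within each experiment as coloured points. *Sdc4* stands at 1.27 and 0.84 in the time comparisons, and 7 of 9 fitted values lie below 0 for Srrm2-KD at 72 h (10118 of 19410 over all genes).

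The genes that build, modify, shed and anchor heparan sulphate proteoglycans were read from 6 lists of 48 genes, of which 44 passed the filter. In edgeR, 2 of 44 were called lower and 0 higher from 24 h to 72 h in Gl2-KD, and 1 of 44 was called lower and 0 higher in Srrm2-KD. Of all genes, 0.706% and 0.361% were called lower in these comparisons. The called genes were *Notum* and *Sulf1*, whose products are secreted. *Notum*, an esterase that inactivates WNT proteins and was first described for releasing glypicans, stood at 56.3, 55.5 and 32.4 CPM in Gl2-KD at 24 h and at 36.5, 21.4 and 9.10 CPM at 72 h. It fell by 1.24 ± 0.21 (SE) on the log2 scale (adjusted p = 0.0245, edgeR), lower in 3 of 3 experiments. In Srrm2-KD *Notum* stood at 52.1, 37.6 and 30.01 CPM at 24 h and at 25.01, 17.6 and 12.6 CPM at 72 h, groups that did not overlap (lower without overlap in 3.92% of all genes), and fell by 1.14 ± 0.21 (adjusted p = 0.0467). *Sulf1*, a sulphatase that removes 6-O-sulphate groups from the chains, stood at 85.9, 57.4 and 48.4 CPM in Gl2-KD at 24 h and at 51.7, 38.7 and 31.9 CPM at 72 h. *Sulf1* fell by 0.64 ± 0.11 (adjusted p = 0.0245, edgeR), lower in 3 of 3 experiments. In Srrm2-KD *Sulf1* had a log2 difference of -0.33 ± 0.11 (adjusted p = 0.172), lower in 3 of 3 experiments, and the test of whether the 2 siRNAs differed in this gave adjusted p = 1. Over 25 alternative settings, the *Notum* difference stayed between -1.58 and -0.98 in Gl2-KD and between -1.24 and -0.98 in Srrm2-KD, and that of *Sulf1* in Gl2-KD between -0.69 and -0.59. *Notum* was called in 18 of the 25 in Gl2-KD and in 10 of the 25 in Srrm2-KD, and *Sulf1* in 16 of the 25 in Gl2-KD. In Gl2-KD both calls were lost without any 1 of the 3 libraries at 24 h or without that of experiment 2 at 72 h, and that of *Sulf1* also without that of experiment 3 at 72 h. In Srrm2-KD the *Notum* call was kept only without the Gl2-KD libraries of experiment 1 or 3 at 72 h.

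In edgeR, no gene of the 6 lists was called between Srrm2-KD and Gl2-KD at 24 h or 72 h. At an unadjusted p under 0.05 were 0 and 11 of the 44, beside 508 and 2498 of all 19410 genes. None was called in the difference between the times, where 1 of the 44 was under that unadjusted p beside 319 of all genes. The lowest adjusted p at 72 h, 0.155, was that of *Col18a1*, a basement membrane collagen that can carry heparan sulphate, at -0.49 ± 0.12 on the log2 scale and lower in 3 of 3 experiments. The other secreted core proteins *Agrn* and *Hspg2* were at -0.48 ± 0.13 and -0.58 ± 0.23 at 72 h (adjusted p = 0.190 and 0.318). *Col18a1*, *Agrn* and *Hspg2*, whose values were seen before they were named here, had up to 360, 424 and 409 CPM. At 72 h, DESeq2 called *Col18a1* and *Agrn* lower in Srrm2-KD (adjusted p = 0.0200 and 0.0412), edgeR with a replicate block for each experiment and time point called *Col18a1* and *Hspg2* (adjusted p = 0.0242 and 0.0488), and edgeR on the 72 h libraries alone called *Col18a1* (adjusted p = 0.0374). These were 2 of 44, 2 of 44 and 1 of 40 list genes tested. Of all genes, these settings called 2.79%, 3.73% and 323 of 18156, so nothing is read from these calls about the lists. Of the chain builders, all 7 linker genes, all 5 polymerisation genes and 12 of 16 modification genes passed the filter, and none was called in any comparison in edgeR as reported here. *Hs3st3b1*, a 3-O-sulphotransferase of the modification list, was called higher at 72 h in Gl2-KD by DESeq2 (0.76 ± 0.21 on the log2 scale, adjusted p = 0.0066) and by edgeR's newer dispersion fit (0.80 ± 0.19, adjusted p = 0.0473). *Xylt1*, which starts the chain, was called lower at 72 h by DESeq2 with either siRNA, at -0.83 ± 0.27 and -0.91 ± 0.28 in Gl2-KD and Srrm2-KD (adjusted p = 0.0320 and 0.0229). With time, DESeq2 called 6.89% of all genes in Gl2-KD and 5.47% in Srrm2-KD, and the newer dispersion fit 624 of 19410 in Gl2-KD. *Xylt2*, also of the linker list, was not called with time by DESeq2. Its median over the libraries was 30.0 CPM against 1.61 CPM for *Xylt1*.

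**Figure D5:**
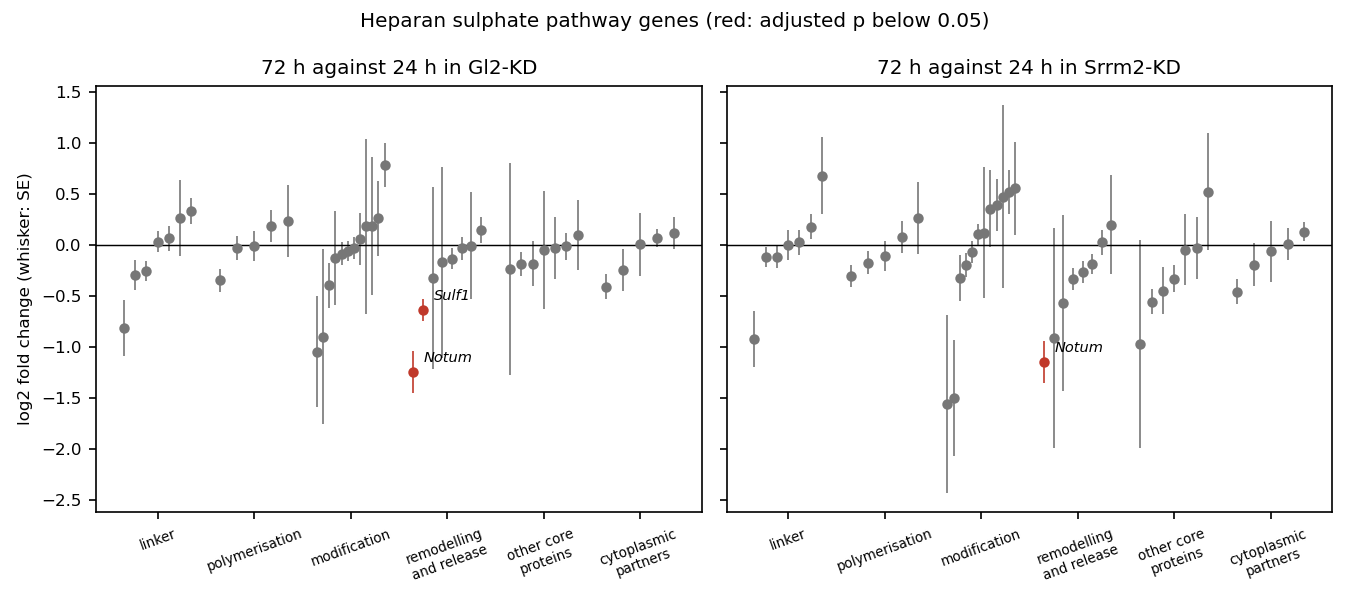
Log2 fold change from 24 h to 72 h of each tested pathway gene in Gl2-KD (left) and Srrm2-KD (right), by list, with the SE as a whisker and genes with adjusted p below 0.05 in red. *Notum* lies at -1.24 and -1.14, and *Sulf1* at -0.64 in Gl2-KD.

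The genes with the pattern most like each of the 3 members with the widest spread among those with medians above 1 CPM were sought over the 12 libraries by Pearson correlation of log2 CPM. The highest was *Ephx1* for *Sdc4* (r = 0.974), *Clic1* for *Gpc3* (r = 0.991) and *Fubp3* for *Gpc4* (r = 0.987). For the other 6 members the best r ran from 0.853 for *Sdc3* with *Tnnc1* to 0.955 for *Gpc1* with *Aes*. The 12 libraries share experiments, cell line and medium and fall into groups by experiment, so these values describe the common order of the libraries and carry no p.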

How the data were processed

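Per the labels and the study's methods, polyA+ RNA of 12 ESC libraries (stranded TruSeq mRNA kit, paired 100 bp reads) was pseudo-aligned by the authors with kallisto 0.46.1 (version also in the submitters' processing notes) to GENCODE mouse transcripts of mm10. The deposited values are estimated counts per gene, of which 33.9 to 43.1% per library were not whole. The sources used here do not say how transcripts were summed to genes or whether kallisto used the strand. Of 42450 identifiers, 42156 were paired with a symbol (GENCODE M21, same build GRCm38), which also gave positions and exon lengths, and promoter sequences were RefSeq's (GRCm38.p6).

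Counts were rounded and filtered by filterByExpr (minimum count 10) in edgeR 4.0.16 with R 4.3.3. The quasi-likelihood test with TMM factors was fitted to all 12 libraries over 4 groups, with the experiment number as a block in place of the RNA processing day that the study used, since the labels do not give that day. p-values are two-sided and adjusted by Benjamini-Hochberg over 19410 genes, and called means below 0.05. SEs were derived from the log2 fold change and the F statistic. CPM use TMM-scaled totals, and changes within an experiment are on log2(CPM + 0.1). Same-numbered libraries deviated together from their group means (18 pairs, r = 0.392 to 0.838, against -0.707 to 0.307 in 36 other pairs), and the library names carry the experiment number. No 2 libraries were identical. Replicates are separate experiments of 1 line. With the experiment number as a block, p-values rest on how the group differences varied between experiments. They do not measure the spread of levels between experiments, which the block takes out. The script was tested on simulated data.

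The 9 members, the 6 pathway lists (48 genes) and the marker lists (32 genes) were chosen with earlier results of these data known. Named are all members, *Srrm2*, *Gpc5*, every called pathway gene and, for the members, the gene most like each. *Krt7* and other markers, overlapping genes, *Col18a1*, *Agrn*, *Hspg2* and the pathway genes called only in an alternative were named after their values were seen. Alternatives were DESeq2 1.42.0, limma 3.58.1 (voom), other scalings, dispersion fits and filters, unrounded counts, other blocks and subsets, and leaving out each library or experiment.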

Additional observations from a re-analysis of the deposited data

How the results depend on the processing

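The direction of *Sdc4*, *Notum* and *Sulf1* with time was the same under all 25 alternatives, while counts of called genes depended strongly on the setting. The 282 genes called between 72 h and 24 h in Gl2-KD became 1338 with DESeq2, 482 with limma-voom, 624 with edgeR's newer dispersion fit, 476 when each library had to hold at least 10 counts of a gene and 158 with the Gl2-KD libraries alone. The 107 in Srrm2-KD became 1061, 259, 279 and 176 in the first 4 of these, 212 without a filter on low counts and 0 with the Srrm2-KD libraries alone. Without the replicate block both counts were 0, and no member or pathway gene was called. With library totals only, 111 genes were called higher and 158 lower in Gl2-KD, against 145 and 137. For Srrm2-KD against Gl2-KD, 0 genes at 24 h became 25 with DESeq2, 2 with limma-voom and 1 each with the newer dispersion fit, no filter and the stricter filter. At 72 h, 0 became 542, 4, 5, 42 and 1 in that order, 323 with the 72 h libraries alone and 724 with a replicate block for each experiment and time point. For the difference between the times, 0 became 2 with DESeq2 and 1 without a filter. Leaving out 1 library or experiment gave 0 to 10 calls at 24 h, 0 to 55 at 72 h, 0 to 387 and 0 to 135 for time in Gl2-KD and Srrm2-KD, and 0 to 2 for the difference. In Gl2-KD 0 genes were called without the library of experiment 2 at 72 h, and 2 and 3 without those of experiments 1 and 2 at 24 h. Pathway genes called with time went from 2 to 5 with DESeq2 in Gl2-KD (*Xylt1* and *Cask* lower and *Hs3st3b1* higher besides *Notum* and *Sulf1*), to 3 with the newer dispersion fit, and from 1 to 4 with DESeq2, 2 with limma-voom, the newer dispersion fit or no filter, and 0 with the Srrm2-KD libraries alone in Srrm2-KD (*Col18a1* in each of the first 4 of these, with *Xylt1* and *Cask* in DESeq2). Between siRNAs at 72 h they went from 0 to 2 with DESeq2 and with the block for each experiment and time point, and to 1 with the 72 h libraries alone. Leaving out 1 library or experiment gave 0 to 2 with time in Gl2-KD and 0 to 1 in Srrm2-KD. No member other than *Sdc4* was called under any alternative. *Gpc6*, with as few as 7 counts in a library, had no value with the stricter filter. The cause of these shifts was not tested.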
